A study of Homo sapiens with 8 samples.

Results

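The genes described are the clustered protocadherins, chosen as every gene name that begins with PCDHA, PCDHB or PCDHG in any of 4 deposited peak lists. They number 43 of the 6520 names in those lists: 15 PCDHA, 6 PCDHB and 22 PCDHG names. The study asked whether METTL1, the catalytic subunit of an RNA 7-methylguanosine methyltransferase, changes which RNAs the RNA-binding protein QKI7 holds. QKI7 is an isoform of Quaking. It was expressed with a 3 x Flag tag from a lentivirus in HepG2-cas9 cells, a human liver cancer line with Cas9, and this transgene is shared by all 8 samples. The groups were immunoprecipitated (IP) and input RNA from cells with a guide against METTL1 (sgMETTL1), and IP and input RNA from cells with a control guide (sgNS), with 2 replicates of each. The labels say that GFP-positive cells were kept and expanded, and they do not say whether replicates were separate cultures or clones, so the spread between replicates may be technical. All values come from peak lists that each set an IP sample against its input, 2 sgMETTL1 lists and 2 sgNS lists. Each peak's fold enrichment and p-value were computed by the authors, and the reads behind them are not listed.

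Clustered protocadherins are cadherin-like adhesion proteins best known from neurons, where each cell uses its own combination of them to tell itself from its neighbours. Their genes lie in tandem on chromosome 5. In the PCDHA and PCDHG clusters every gene has its own promoter and first exon, which encodes the extracellular and transmembrane parts, and all genes of a cluster splice to the same constant exons, so that their mRNAs share the 3' end. PCDHB genes have no shared constant exons, and each is largely a single exon. A peak in the constant exons therefore cannot be assigned to 1 gene of its cluster.

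Nearly all protocadherin rows of the lists were the same few sites written out under many names. The lists held 93 and 86 protocadherin rows with sgMETTL1, against 130 and 93 with sgNS. Joined wherever they overlapped by at least 1 base, these were 9 and 9 sites with sgMETTL1, against 11 and 9 with sgNS. Of all 402 rows, 386 (96.0%) belonged to shared sites, and each shared site was listed under all 15 PCDHA names or all 22 PCDHG names. Read strictly, 259 rows (64.4%) had exactly the start and end of another name's row, because the start of 1 site differed by up to 59 bases between names. The other 16 sites were listed under 1 name each. By rows the protocadherins made up 0.921% and 0.916% of the sgMETTL1 lists, against 1.12% and 0.843% of the sgNS lists. By sites they made up 0.0905% and 0.0972% with sgMETTL1, against 0.0967% and 0.0826% with sgNS. Every peak was on the plus strand of chromosome 5 and formed a single block.

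The clusters differed in how fully they were named. All 15 PCDHA and all 22 PCDHG protein-coding genes of RefSeq (GRCh38.p14) were named in all 4 lists. Of 16 PCDHB genes 6 were named at all, and PCDHB5 alone was in all 4 lists. In sum 38 of 43 names (88.4%) stood in all 4 lists, where 63.7% of all 6520 names did. Counted as places on the genome, the members present in all 4 lists came down to 3 zones of the PCDHA 3' end, 1 zone of the PCDHG 3' end and the PCDHB5 site.

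**Figure D1:**
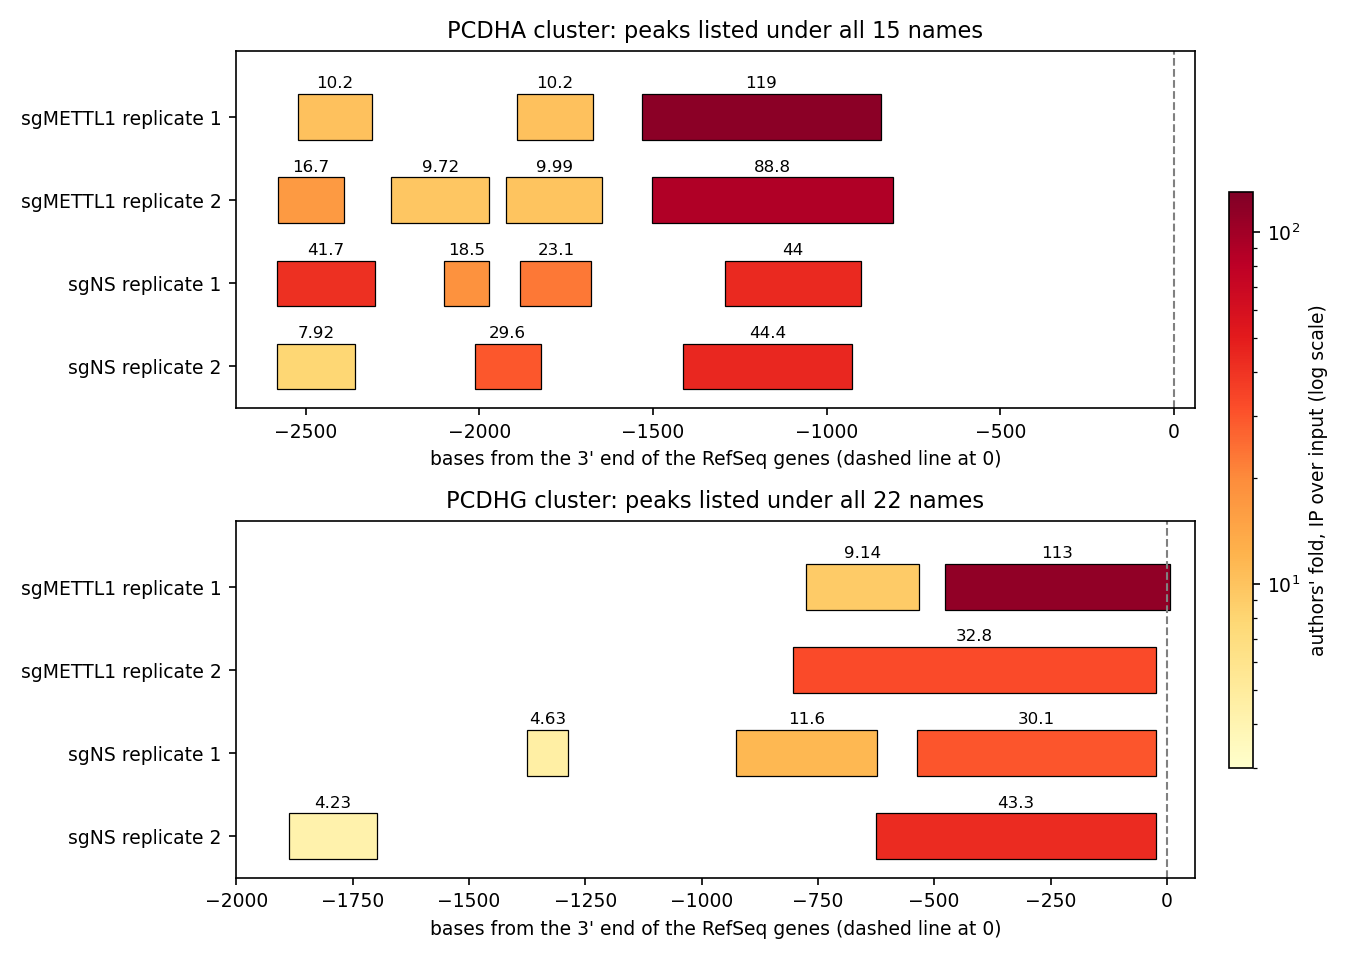
Shared sites near the PCDHA and PCDHG 3' ends in each list, with distance from the RefSeq gene end in bases on the horizontal axis and the 2 sgMETTL1 lists above the 2 sgNS lists. Each bar is 1 shared site, and its colour and the printed number give the median fold over the names. The strongest PCDHA site ended 842 and 808 bases before the gene end with sgMETTL1, against 902 and 928 with sgNS.

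The PCDHA 3' end held 3 and 4 shared sites with sgMETTL1, against 4 and 3 with sgNS, within about the same stretch of 1682 and 1773 bases, against 1682 and 1656. Positions are those of GRCh38. By median fold over the names, the site nearest the 3' end was the strongest in every list. It lay at chr5:141010814-141011505 and chr5:141010844-141011539 with sgMETTL1, against chr5:141011054-141011445 and chr5:141010934-141011419 with sgNS. All of these lie within the PCDHA constant region of RefSeq (PCDHACT, chr5:140978949-141012344), downstream of the start of PCDHAC2 at 140966476, the last first exon of the cluster. The site covered 692 and 696 bases with sgMETTL1, against 392 and 486 with sgNS. It was thus longer in both sgMETTL1 lists and reached further at both ends.

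The median fold of the 3'-most PCDHA site over the 15 names was 119 and 88.8 with sgMETTL1, against 44.0 and 44.4 with sgNS. The −log10 of its listed p was 22.3 and 17.1 with sgMETTL1, against 8.76 and 9.19 with sgNS. Both sgMETTL1 lists were above both sgNS lists in fold and in p. In bulk RNA, a change in more cells and a larger change in each cell cannot be told apart. Among all peaks of its list, counted down from the highest fold, this median stood at the 0.44th and 0.68th percentile with sgMETTL1, against the 2.98th and 2.54th with sgNS. By p it stood at the 25.85th and 33.06th percentile with sgMETTL1, against the 54.68th and 53.69th with sgNS, where the strongest p of a list is at the low end.

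The 15 names barely differed at this site. In sgMETTL1 replicate 1 all had a fold of 119. In sgMETTL1 replicate 2 PCDHA7 had 86.1, and the other names had 88.8. In sgNS replicate 1 PCDHA7 had 48.6 and PCDHA12 46.3, and the other names had 44.0. In sgNS replicate 2 all had 44.4. The names share the site, so these differences are no spread between samples.

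The PCDHA sites further upstream were weaker by median fold, and their order between guides differed from zone to zone. The site that begins near 141009764 had a median fold of 10.2 and 16.7 with sgMETTL1, against 41.7 and 7.92 with sgNS. The sgNS value of replicate 1 was the highest of the 4 and that of replicate 2 the lowest, so the groups overlapped. In sgNS replicate 1 some names had a fold of 44.0 here, the same as at the site nearest the 3' end. Between 141010094 and 141010701 the shared sites had median folds of 10.2 with sgMETTL1 replicate 1 and of 9.72 and 9.99 with sgMETTL1 replicate 2, against 18.5 and 23.1 with sgNS replicate 1 and 29.6 with sgNS replicate 2. In this middle zone both sgNS lists were above both sgMETTL1 lists by fold, the reverse of the site nearest the 3' end. By p they overlapped. The median −log10 p was 4.99 with sgMETTL1 replicate 1 and 5.11 and 5.17 with sgMETTL1 replicate 2. With sgNS it was 3.35 and 4.31 in replicate 1 and 5.9 in replicate 2. In all, shared PCDHA sites covered 1128 and 1448 bases with sgMETTL1, against 1014 and 902 with sgNS.

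The PCDHG 3' end had 2 and 1 shared sites with sgMETTL1, against 3 and 2 with sgNS, and here too the site nearest the end was the strongest of the cluster in each list. It lay at chr5:141512499-141512981 and chr5:141512171-141512951 with sgMETTL1, against chr5:141512439-141512951 and chr5:141512349-141512951 with sgNS. It ended 24 bases before the RefSeq end of the PCDHG genes (141512975) in every list but sgMETTL1 replicate 1, where it ran 6 bases past it. The PCDHA site nearest the 3' end stopped 808 to 928 bases short of its annotated end. The median fold over the 22 names was 113 and 32.8 with sgMETTL1, against 30.1 and 43.3 with sgNS. The −log10 p was 21.7 and 27.9 with sgMETTL1, against 14.1 and 20.3 with sgNS. The sgMETTL1 replicates lay on either side of sgNS replicate 2 by fold, and by p both were above both sgNS lists.

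The PCDHG names followed each other closely with sgMETTL1 and less closely with sgNS. In sgMETTL1 replicate 1 all 22 had a fold of 113. In sgMETTL1 replicate 2 they ranged between 31.9 and 32.8. In sgNS replicate 1 PCDHGB7 had 22.4 and PCDHGC3 25.5, while the others had 30.1. In sgNS replicate 2 PCDHGC3, PCDHGB1, PCDHGA7 and PCDHGA10 had 28.9, while the others had 43.3. For the names with 28.9, both sgMETTL1 lists were above both sgNS lists by fold, and for the others the guides overlapped. All 22 names share this site, so the split is neither a difference between genes nor a spread between samples. The site was widest in sgMETTL1 replicate 2, with 781 covered bases, and there it spanned a stretch that held separate sites in sgMETTL1 replicate 1 and in sgNS replicate 1. In sgMETTL1 replicate 1 the upstream neighbour at chr5:141512199-141512442 had a median fold of 9.14, against 11.6 at chr5:141512049-141512353 in sgNS replicate 1. The sgNS lists alone held weak shared sites further upstream, at chr5:141511599-141511689 with a fold of 4.63 in replicate 1 and at chr5:141511089-141511277 with a median fold of 4.23 in replicate 2. These 2 sites do not overlap each other.

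**Figure D2:**
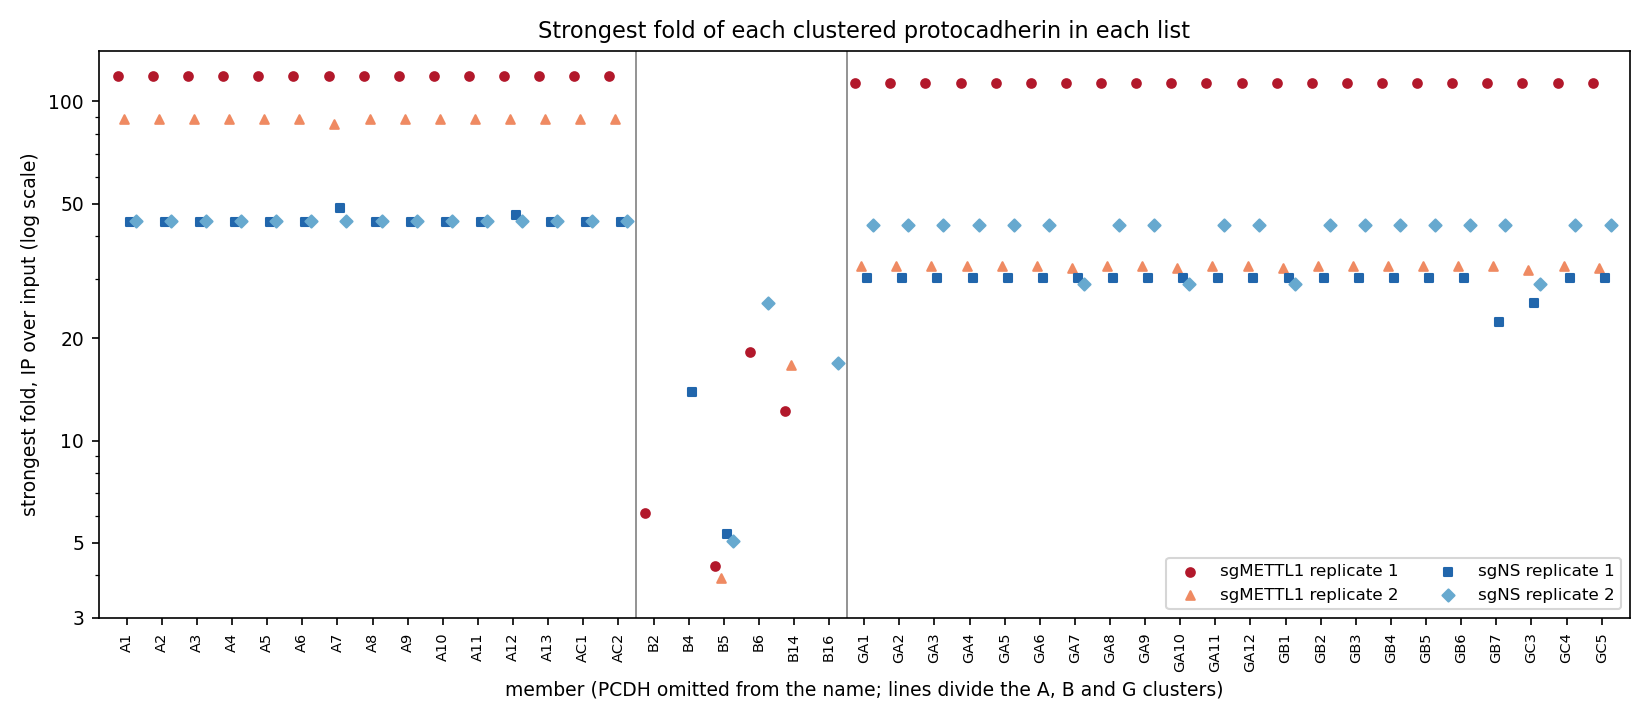
Strongest fold (log axis) of every protocadherin name in each list, with sgMETTL1 points left of sgNS points and names grouped by cluster. Each point is 1 name in 1 list, and names with shared 3' exons lie on or near 1 level, save some PCDHG names with sgNS. The PCDHA names sit at 86.1 to 119 with sgMETTL1, against 44.0 to 48.6 with sgNS.

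PCDHB genes had weaker or less repeatable peaks, and each was listed under 1 name. PCDHB5 was the exception in repeatability. Its peak had the same start and end in all 4 lists, chr5:141136279-141136458, 34.1% of the way along the RefSeq span of the gene (141135206 to 141138615). Its fold was 4.25 and 3.92 with sgMETTL1, against 5.31 and 5.07 with sgNS. The −log10 p was 24.0 and 23.8 with sgMETTL1, against 33.9 and 31.6 with sgNS. Both sgMETTL1 lists were below both sgNS lists in fold and in p. By strongest fold, 1549 of the 4084 genes in all 4 lists, names that share that peak counted once, were below likewise. The fold was the lowest of all protocadherin genes named in all 4 lists, whereas its −log10 p exceeded that of the PCDHA site in every list.

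PCDHB14 was named with sgMETTL1 in both replicates and with sgNS in none. Its peaks were at chr5:141222594-141222654 with a fold of 12.2 and chr5:141222505-141222624 with a fold of 16.7, and they shared 31 bases. Both lay outside the RefSeq span of PCDHB14, ending 689 and 719 bases before its start at 141223343. Their evidence was thin, with listed FDRs of 0.708% and 3.16%. PCDHB6 had a peak of 18.3-fold in sgMETTL1 replicate 1 (listed FDR 2.14%) and of 25.4-fold in sgNS replicate 2 (listed FDR 0.0107%). Both PCDHB6 peaks ended 59 bases before the gene's 3' end and shared 91 bases. The other PCDHB names were in 1 list each. PCDHB2 had 6.1-fold in sgMETTL1 replicate 1, PCDHB4 had 13.9-fold in sgNS replicate 1 and PCDHB16 had 16.9-fold in sgNS replicate 2.

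Peaks listed under a single PCDHA or PCDHG name were rare, and they lay near the RefSeq start of that gene rather than at the shared end. PCDHA5 had 1 in sgNS replicate 1, at chr5:140822196-140822346, 583 bases after its RefSeq start, with a fold of 16.2 (listed FDR 1.78%). PCDHGA5 had 1 in sgMETTL1 replicate 2, at chr5:141365108-141365168, 946 bases after its start, with a fold of 9.72 (listed FDR 3.31%). The PCDHA5 and PCDHGA5 peaks also lie within the spans of genes of their cluster that start further upstream. PCDHGA8 had a peak that began at 141392155 in 3 lists. Its fold was 7.77 in sgMETTL1 replicate 2, with no such peak in sgMETTL1 replicate 1, against 11.6 and 14.8 with sgNS. Both sgNS lists were above the single sgMETTL1 value. The peak ended 298 bases before the RefSeq start of PCDHGA8 (141392633) in 2 of the 3 lists and 239 bases before it in sgNS replicate 2. There it lies in the span of PCDHGB4 and of other PCDHG genes that start further upstream.

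In sgNS replicate 2 this PCDHGA8 peak was the only protocadherin row that reached a promoter window, here the 250 bases before and 50 bases after a RefSeq start, which 38 of 43 members have. The window is shown because it is where a peak listed under 1 name meets a promoter, and capitals mark the 12 bases that the peak covered. It spans chr5:141392383-141392682 on the plus strand (RefSeq, GRCh38.p14).
PCDHGA8 promoter: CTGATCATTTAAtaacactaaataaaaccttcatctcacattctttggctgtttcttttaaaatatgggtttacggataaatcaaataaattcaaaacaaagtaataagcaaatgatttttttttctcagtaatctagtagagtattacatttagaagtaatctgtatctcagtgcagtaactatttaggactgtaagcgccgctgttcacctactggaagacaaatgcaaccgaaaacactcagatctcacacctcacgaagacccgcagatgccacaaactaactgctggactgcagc
The Quaking core motif ACTAAC occurred 1 time on the plus strand of this window, at base 281, outside the covered bases, and not on the minus strand. ACTAAT, a form that differs in its last base, had no match on either strand. Among all 35116 windows of the same length ACTAAC was found in 2.53% on the plus strand and 2.55% on the minus strand, and ACTAAT in 3.07% and 2.74%. The sequence of the shared 3' sites was not used here.

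**Figure D3:**
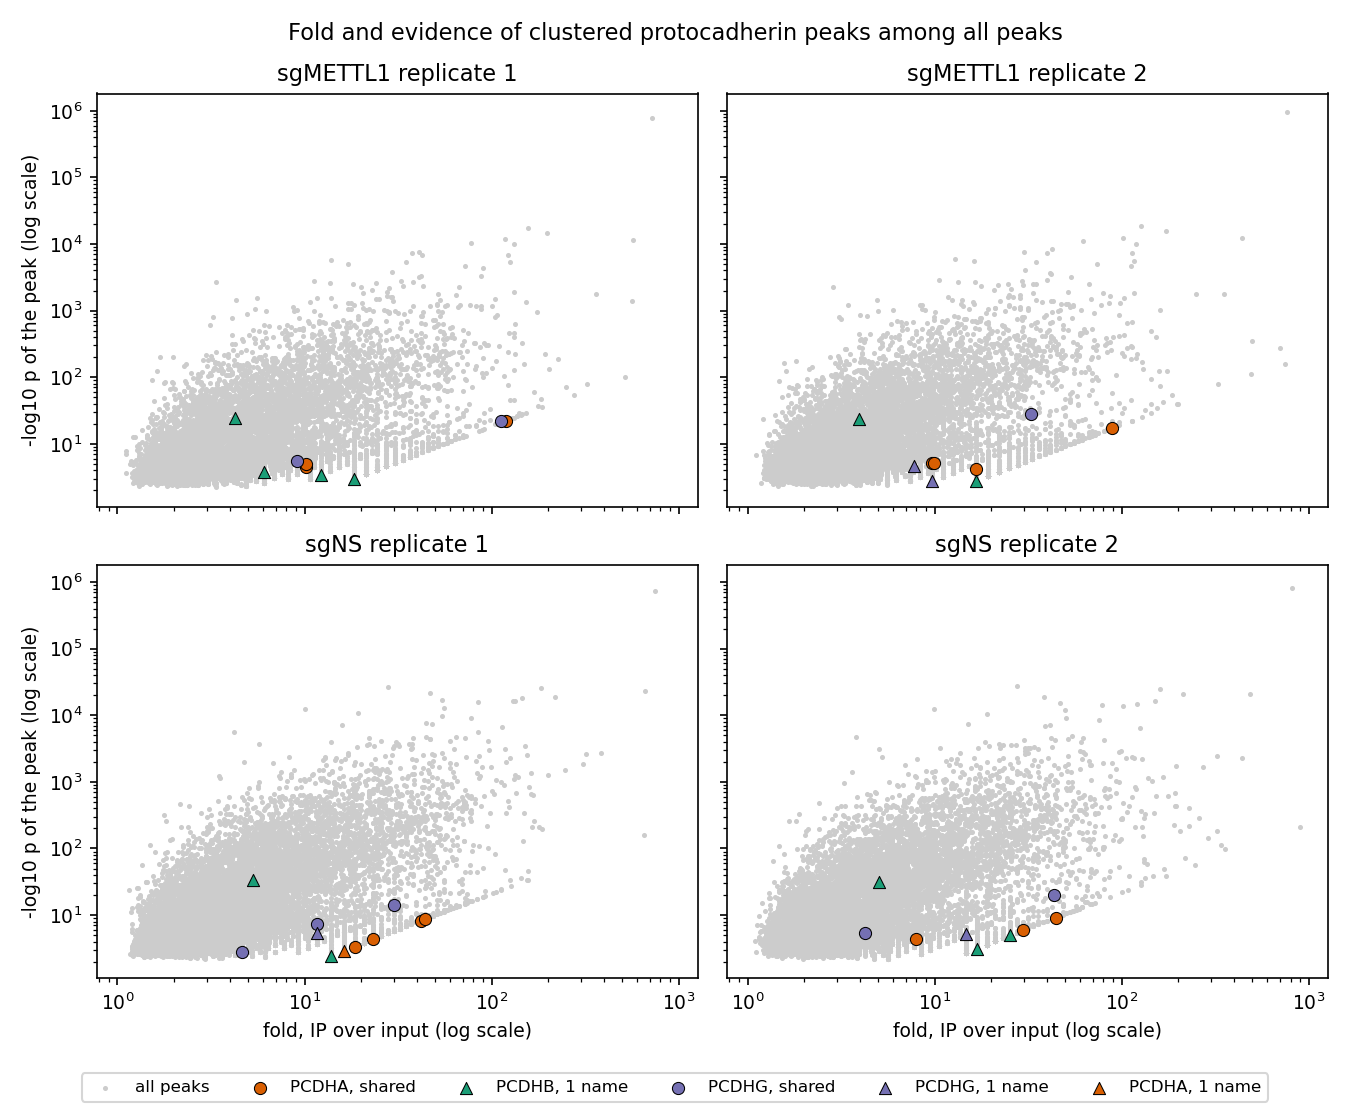
Fold enrichment (log axis) against −log10 of the listed p (log axis) for all peaks of each list, with sgMETTL1 lists above sgNS lists. Grey points are peaks, coloured circles are shared protocadherin sites (medians over names) and triangles are sites listed under 1 name. The strongest PCDHA sites lie to the right in fold and near the lower edge of the cloud, and PCDHB5 lies inside it.

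The PCDHA site nearest the 3' end stood higher by fold than by p in every list, and PCDHB5 stood higher by p than by fold, as the plot of fold against p shows. Among all peaks PCDHB5 was at percentiles of 24.7 and 27.19 by p with sgMETTL1, against 28.0 and 29.45 with sgNS. By fold it was at 52.38 and 55.36 with sgMETTL1, against 43.44 and 43.46 with sgNS. Many folds in each list were whole multiples of 1 value, here called the step, which was 3.047 and 2.776 with sgMETTL1, against 2.315 and 2.112 with sgNS. Of single-block peaks within a middle range of folds 43.4% and 43.0% lay at whole steps with sgMETTL1, against 37.3% and 33.9% with sgNS. A step 7% larger caught at most 3.83%. Of protocadherin rows, counted at any fold, 274 of 402 (68.2%) were at whole steps. They included 147 of 210 rows of shared PCDHA sites and 117 of 176 rows of shared PCDHG sites. This share cannot be set against that of single-block peaks, since the ranges differ and the rows repeat each shared site under many names. At the highest folds, rounding to 3 digits also makes a whole step easier to meet. The PCDHA site nearest the 3' end was at 39 and 32 steps with sgMETTL1, against 19 and 21 with sgNS. The ratio of the list means between guides was 2.35 in fold and 1.77 in steps. The fold of PCDHB5 was 1.39 and 1.41 steps with sgMETTL1, against 2.29 and 2.4 with sgNS. The part that the steps take in the difference between guides was not tested.

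The comparison between guides used the strongest fold of each gene, turned into a rank within its list and then a normal score, since no scale between lists is stated. Names that shared their strongest peak were 1 row, so 4150 names in all 4 lists became 4084 rows, of which the 22 PCDHG names and the 15 PCDHA names were the largest groups. No row was called by limma at an FDR of 5% (0 of 4084, 0.0%), and 390 rows had an unadjusted p under 0.05, 199 higher and 191 lower with sgMETTL1. The PCDHA row averaged a score of 2.225 with sgMETTL1 and 1.449 with sgNS, a difference of 0.775 (SE 0.188, limma adjusted p = 0.388). Its percentiles among rows, counted down from the highest fold, were 1.08 and 1.6 with sgMETTL1, against 7.98 and 6.81 with sgNS. It was therefore ranked higher in both sgMETTL1 lists, as 20.1% of all rows were, and it did not pass the test. With the mean of all PCDHA peaks in place of the strongest, the difference was 0.256. The PCDHG row averaged 1.783 with sgMETTL1 and 1.276 with sgNS, a difference of 0.507 (SE 0.384, limma adjusted p = 0.693). Its percentiles of 1.16 and 9.82 with sgMETTL1, against 13.85 and 7.17 with sgNS, overlapped. With the mean of all PCDHG peaks in place of the strongest, the difference was 0.814 (limma adjusted p = 0.482) and both sgMETTL1 lists were above both sgNS lists. That mean takes in every site, and the PCDHG end held 2 and 1 shared sites with sgMETTL1, against 3 and 2 with sgNS. What the number of sites adds to this difference was not tested. The PCDHG difference rested on sgMETTL1 replicate 1: it was 0.017 without that list and 0.997 without sgMETTL1 replicate 2.

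PCDHB5 scored −0.61 with sgMETTL1 and −0.563 with sgNS, a difference of −0.046 (SE 0.179, limma adjusted p = 0.944). Its percentiles were 72.7 and 73.13 with sgMETTL1, against 71.49 and 71.22 with sgNS. Both sgMETTL1 lists ranked it slightly lower, as they did 22.5% of all rows. Ranked by p in place of fold, the PCDHA difference was 1.062 (limma adjusted p = 0.127), the PCDHG difference 0.728 (adjusted p = 0.159) and the PCDHB5 difference 0.306 (adjusted p = 0.169). By that ranking all of these rows were higher in both sgMETTL1 lists, as 28.5% of all rows were, and none passed the test.

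**Figure D4:**
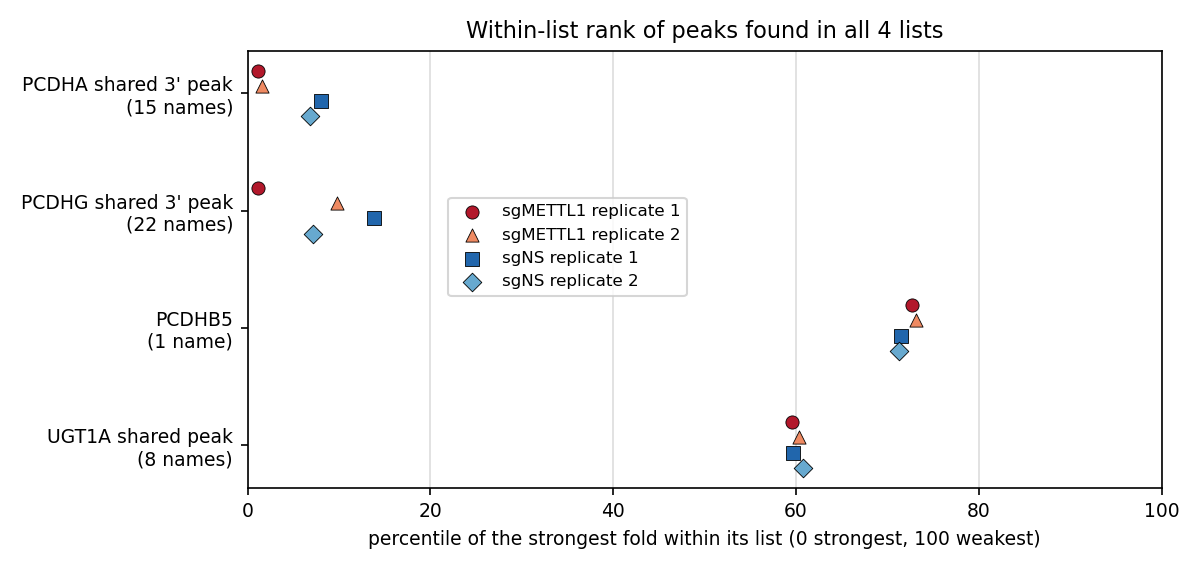
Percentile of the strongest fold among the 4084 rows of each list for the PCDHA, PCDHG, PCDHB5 and UGT1A rows, where low values are the highest folds. Each point is 1 list, with sgMETTL1 above sgNS. The PCDHA lists are apart (1.08 and 1.6 against 7.98 and 6.81), the PCDHG lists overlap and the PCDHB5 lists lie within 71.22 to 73.13.

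By presence alone few protocadherins differed between guides. PCDHB14 was the only 1 of 43 named with sgMETTL1 in both replicates and never with sgNS, where 1.52% of all names were. At a listed p of at most 1e-04 PCDHB14 was in neither group. Of the 43 names 0 were listed with sgNS in both replicates and never with sgMETTL1, where 4.63% of all names were. The 15 PCDHA and 22 PCDHG names were in all 4 lists through their shared sites. Only the 6 PCDHB names could therefore enter either count, so the 43 names are not separate observations. With 2 lists a guide, no exact test can go below p = 0.33.

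Other genes of the same families and pathways had peaks of their own. Of 15 non-clustered protocadherins 1 had a peak in any list. Of 27 classical cadherins and catenins 4 were in both lists of each guide. CTNNA1, which ties cadherins to actin, had a strongest fold of 46.8 and 51.8 with sgMETTL1, against 46.1 and 43.7 with sgNS. CDH2 (N-cadherin) had 9.7 and 7.81 with sgMETTL1, against 13.5 and 10.2 with sgNS. Of 9 FAT, Dachsous and CELSR cadherins 2 were in both lists of each guide. Of 21 regulators of promoter choice in the clusters, such as cohesin and DNA methyltransferases, 16 were in all 4 lists, 6 with a higher and 10 with a lower mean score with sgMETTL1 and a median difference of −0.159. The de novo methyltransferase DNMT3B had 25.6 and 11.3 with sgMETTL1, against 24.5 and 35.9 with sgNS, a score difference of −0.371. NIPBL and SMC1A of the same list went the other way, with score differences of 0.553 and 0.145. Of 19 proteases and partners of the proteins 10 were in all 4 lists, 3 with a higher and 7 with a lower mean score with sgMETTL1. WASF1, a subunit of the WAVE complex that protocadherin tails bind, had 7.19 and 10.2 with sgMETTL1, against 27.8 and 22.3 with sgNS, a score difference of −0.794 (limma adjusted p = 0.432). WASF3 of the same list had 5.94 and 12.5 with sgMETTL1, against 11.9 and 40.1 with sgNS, so the guides overlapped. Its score difference was −0.68 (limma adjusted p = 0.673). ABI1 and NCKAP1 of the same list had smaller score differences of −0.226 and −0.069. No row of these lists was called by limma, beside a median difference of −0.018 over all 4084 rows.

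UGT1A genes, which encode glucuronidation enzymes of the liver, have the same layout of alternative first exons and shared 3' exons. Of the UGT1A names 8 shared their strongest peak in all 4 lists. Their row stood at percentiles of 59.55 and 60.37 with sgMETTL1, against 59.64 and 60.72 with sgNS, a score difference of 0.006 (limma adjusted p = 0.996). The strongest shared PCDHA and PCDHG sites stood higher in the order of folds than the strongest shared UGT1A site in each list.

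Some facts concern all samples. The lists held 10095 and 9388 peaks with sgMETTL1, against 11562 and 11038 with sgNS. METTL1 and WDR4 had no peak in any list, so the peaks do not check the knockout, and QKI had a strongest fold of 109 and 107 with sgMETTL1, against 78.0 and 68.0 with sgNS. Of 17 hepatocyte markers 7 were in both sgMETTL1 lists and 8 in both sgNS lists. Of 12 neuron and glia markers 2 (MBP and MAP2) were in both lists of each guide, and of 6 fibroblast markers none was. Of 5 blood markers 1 (LYZ) was in both lists of each guide. A peak list shows enrichment over input and not the level of an RNA, so a marker without a peak was not shown to be at 0.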

How the data were processed

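RNA immunoprecipitation sequencing of HepG2-cas9 cells with 3 x Flag-QKI7 was used: 8 samples in 4 groups of 2, grouped by their titles. Per the labels' protocols, cells were UV cross-linked and sonicated, ribosomal RNA was depleted and libraries were stranded. STAR and the build GRCh38 are named in the submitters' processing notes. For the peak caller and the scaling between lists, the name and settings were not given in the sources used here. A list for each IP sample against its input was deposited by the authors, so replicates were not pooled. The fold of a peak is a ratio of IP over input as deposited by the authors. The p-value is as deposited by the authors. The base-10 logarithms of p and FDR are handled as a score, as deposited by the authors. Depth is unknown, since no read counts are listed.

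Starts were made 1-based. A gene was represented by its strongest fold, ranked within each list and turned into a normal score. Names were 1 row where their strongest peaks overlapped by at least 50% reciprocally in all 4 lists. Guides were compared with limma 3.58.1 (R 4.3.3, Benjamini-Hochberg over 4084 rows, two-sided), which was tested on simulated data. To pass, that test required only the right sign for most known shifts. It does not show which changes 2 lists a guide could call. Python 3.11.15, pandas 2.3.3, numpy 2.4.6 and matplotlib 3.10.9 did the rest. The steps were fitted to the folds of each list. Every member is accounted for. Named with values were each shared site, members with a peak of their own in both lists of a guide and, chosen after their values were seen, the other members with a peak of their own, and from each context list members with a peak in both lists of a guide, up to 4. The members and lists were chosen with earlier results of these data known. The alternatives were log2 folds, the mean of a gene's peaks, each name as a row, ranks by p, a replicate block, other peak thresholds and overlap rules, and leaving out each list.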

Additional observations from a re-analysis of the deposited data

How the results depend on the processing

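No row was called under any of the 9 alternatives to the comparison between guides. The PCDHA difference kept its direction under all 9 (0.256 when a gene's peaks were averaged, 1.218 on log2 folds, adjusted p 0.127 to 0.73), and so did the PCDHG difference (0.017 to 0.997, adjusted p 0.159 to 0.988). On log2 folds the median over all rows was −0.242. PCDHB5 turned to 0.306 when ranked within each list by p in place of fold. Its −log10 p before ranking was nevertheless lower in both sgMETTL1 lists than in both sgNS lists. The PCDHB5 difference kept its direction under the other 8, with −0.346 on log2 folds and −0.165 when its peaks were averaged. Leaving out 1 list gave 0.697 to 0.853 for PCDHA, 0.017 to 0.997 for PCDHG and −0.053 to −0.04 for PCDHB5. The deviations of same-numbered lists correlated at 0.0184, which with 2 lists a guide is a single value and does not settle whether the samples are paired. The labels give no pairing beyond the shared number. With the replicate block the differences were 0.775, 0.507 and −0.046 (adjusted p 0.506, 0.728 and 0.957) and 0 rows were called. The 38 members in all 4 lists became 5 by overlap of peaks, 4 by 50% reciprocal overlap and 1 by distinct positions, which count places and not names. The 1 member with a peak in both sgMETTL1 replicates and none with sgNS, PCDHB14, became 0 at a listed p of at most 1e-04, by 50% reciprocal overlap and by distinct positions, and leaving out 1 list gave 1 to 2. PCDHB2 joined it without sgMETTL1 replicate 2. Leaving out 1 list gave 0 to 1 members with a peak in each sgNS list used and none with sgMETTL1, PCDHB16 without sgNS replicate 1 and PCDHB4 without sgNS replicate 2. With 2 lists a guide and no listed read counts, counting error could not be given.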

Other observations

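Of all 4084 rows in the comparison between guides, 27 stood for more than 1 name, 93 names in all. After the PCDHG, PCDHA and UGT1A groups, each of the others held 2 names. With every name as a row of its own, 15 of 15 PCDHA names had an unadjusted limma p under 0.05 for what is 1 site, with p between 0.011 and 0.0206 and differences of 0.644 to 0.742. In that count 408 rows had such a p, against 390 with shared names joined.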
